A study of Mus musculus with 9 samples.

Results

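The genes described here encode the receptors for glutamate and GABA. They were found by symbol in the deposited count table, as every row named for an AMPA (*Gria*), kainate (*Grik*), NMDA (*Grin*), delta (*Grid*), metabotropic glutamate (*Grm*), GABA-A (*Gabr*) or GABA-B (*Gabbr*) receptor subunit. Of 24421 rows, 48 matched: 4 AMPA, 5 kainate, 7 NMDA, 2 delta, 8 metabotropic glutamate, 19 GABA-A and 2 GABA-B genes, and *Grin1os*, an antisense transcript of *Grin1*, so that 47 receptor genes remained.

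RNA came from the brains of C57BL/6 mice and was sequenced in 9 libraries, 3 each of control mice given vehicle (control), mice given BAL101553 (BAL), and material labelled astrocytes whose treatment is also given as BAL101553 (Astro). BAL101553 is an oral prodrug that activates the spindle assembly checkpoint. All mice of the control and BAL groups, implanted as young adults, carried SB28, a GFP-expressing mouse glioma cell line, in the brain; the labels call this material whole tissue, whereas the methods of the study describe sorted GFP+CD45-CD11b- tumor cells, taken later in BAL-treated than in control mice so that tumor volumes were alike. Drug and time of growth therefore cannot be told apart, the methods name fewer libraries per group than the table holds, they do not name the Astro group, and the mouse behind each library and any pooling are not given in the sources used here.

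Glutamate is the main excitatory and GABA the main inhibitory transmitter of the brain. AMPA, kainate, NMDA and GABA-A receptors are ion channels assembled from several subunits, and metabotropic glutamate and GABA-B receptors act through G proteins. NMDA receptors need the subunit encoded by *Grin1*, and surface GABA-B receptors need the products of both *Gabbr1* and *Gabbr2*. Neurons use the whole repertoire, astrocytes a part of it, and glioma cells can carry some of these receptors.

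Between 22919523 and 34013875 reads were counted per library. Levels are reads of a gene per 1000000 reads (CPM) after TMM scaling over all 9 libraries, and levels of different genes are compared as CPM per kb of exon. Markers were summed over lists to check the labels. The 14 neuron genes summed to between 164 and 197 CPM in control, 254 and 387 in BAL and 291 and 323 in Astro libraries. *Rbfox3*, which marks neuronal nuclei, was at 0 in every control and BAL library, and *Thy1* led the neuron sum in BAL. Of the 14, 10 exceeded 3 counts in every control library and 11 in every BAL library. *Stmn2* lay at 6.69 to 29.6 CPM in control and BAL libraries and at 3.64 to 4.74 CPM in Astro libraries. Astrocyte genes (12) summed to between 1119 and 1266 CPM in control, 822 and 982 in BAL and 10174 and 11959 in Astro libraries. *Aqp4* and *Gfap*, which mark astrocytes, did not exceed 0.536 CPM in control and BAL libraries and lay between 89.6 and 725 CPM in Astro libraries. Other genes of this list were present, 9 of the 12 over 3 counts in every control library and 9 in every BAL library. In control and BAL libraries *Gja1* had 640.5 to 919.4 CPM and *Sox9* 78.3 to 170.8 CPM. In Astro libraries *Gja1* was higher, at 1386 to 1642 CPM, and *Sox9* lay at 142.7 to 163.5 CPM. The Astro libraries also held 10498 to 13039 CPM of 6 oligodendrocyte genes and 684 to 1410 CPM of 12 microglia and macrophage genes. They held 1011 to 1288 CPM of 8 oligodendrocyte precursor genes, led by *Olig1* and *Sox10*. In this list *Olig2*, *Gpr17* and *Lhfpl3* were higher in Astro libraries too, and *Neu4* did not exceed 0.126 CPM. *Pdgfra* was lower, at 7.22 to 9.26 CPM against 125.6 to 330.0 CPM in control and BAL libraries. This sum alone therefore does not show RNA of precursor cells. The Astro libraries also held 211 to 251 CPM of 8 endothelial genes. The label astrocytes therefore does not cover all of their RNA. The part of other cells in the receptor levels was not tested, and in bulk RNA a larger share of cells and more RNA per cell cannot be told apart.

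The promoters of 4 genes are shown because these genes led their class per kb of exon: *Gabre* and *Gabbr1* in the control and BAL libraries (called tumor libraries below), and *Grin2c* and *Gabrg1* in the Astro libraries. Each sequence runs 5′ to 3′ on the strand of the gene, in RefSeq on GRCm38.p6, and stops before the annotated gene. Capitals mark the GC box GGGCGG on either strand (CCGCCC where it lies on the other strand).
Gabre: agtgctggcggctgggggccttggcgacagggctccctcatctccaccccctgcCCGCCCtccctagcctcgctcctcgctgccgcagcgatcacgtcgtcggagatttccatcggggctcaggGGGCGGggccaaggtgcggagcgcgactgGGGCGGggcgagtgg
Gabbr1: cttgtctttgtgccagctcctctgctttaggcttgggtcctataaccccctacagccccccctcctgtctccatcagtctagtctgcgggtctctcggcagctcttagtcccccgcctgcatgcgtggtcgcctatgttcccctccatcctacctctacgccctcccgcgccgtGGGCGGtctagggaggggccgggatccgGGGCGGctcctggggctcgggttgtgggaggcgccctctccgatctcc
Grin2c: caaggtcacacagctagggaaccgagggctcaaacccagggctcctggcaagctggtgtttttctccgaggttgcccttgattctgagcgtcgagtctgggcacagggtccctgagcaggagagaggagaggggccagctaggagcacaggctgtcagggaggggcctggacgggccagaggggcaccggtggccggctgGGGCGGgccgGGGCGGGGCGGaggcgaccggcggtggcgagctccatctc
Gabrg1: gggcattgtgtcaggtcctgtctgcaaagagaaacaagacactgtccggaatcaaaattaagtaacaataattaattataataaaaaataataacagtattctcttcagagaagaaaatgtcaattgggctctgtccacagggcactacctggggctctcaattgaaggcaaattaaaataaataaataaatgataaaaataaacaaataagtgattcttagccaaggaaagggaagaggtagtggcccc

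These windows are chrX:72274804-72274971 (minus strand, *Gabre*), chr17:37045716-37045965 (plus strand, *Gabbr1*), chr11:115267244-115267493 (minus strand, *Grin2c*) and chr5:70842618-70842867 (minus strand, *Gabrg1*). GC boxes numbered 3, 2, 3 and 0, and the share of G and C was 73.2%, 66.0%, 68.8% and 35.6%. *Grin2c* and *Gabre* both had 3 boxes, although *Grin2c* was higher and *Gabre* lower in Astro than in BAL libraries, as given below. Among the receptor genes, 32 matched 39 promoters in RefSeq, each 250 bases before to 50 after the start. A GC box was present in 19 of these (48.7%) and in 35.7% of all 32851 promoters, and TATAAA on either strand in 4 (10.3%) and 13.6%. The median share of G and C was 59.7% in receptor promoters and 52.7% in all promoters. These are matches of letters and not sites of binding.

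Few of the receptor genes were detected in the tumor libraries. Over the control and BAL libraries together, 13 of 47 were at 0 in all 6 libraries and 29 did not exceed 3 counts in any; 18 exceeded 3 counts in at least 1, and 7 reached 1 CPM in each. In the Astro libraries, 42 of 47 exceeded 3 counts in at least 1 library and 28 reached 1 CPM in each. *Gabra6*, *Gabrp* and *Grm6* were at 0 in all 9 libraries. A count of 0 allows up to 3 counts in a library, which was 0.124 CPM in control and 0.102 CPM in BAL libraries on average.

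**Figure D1:**
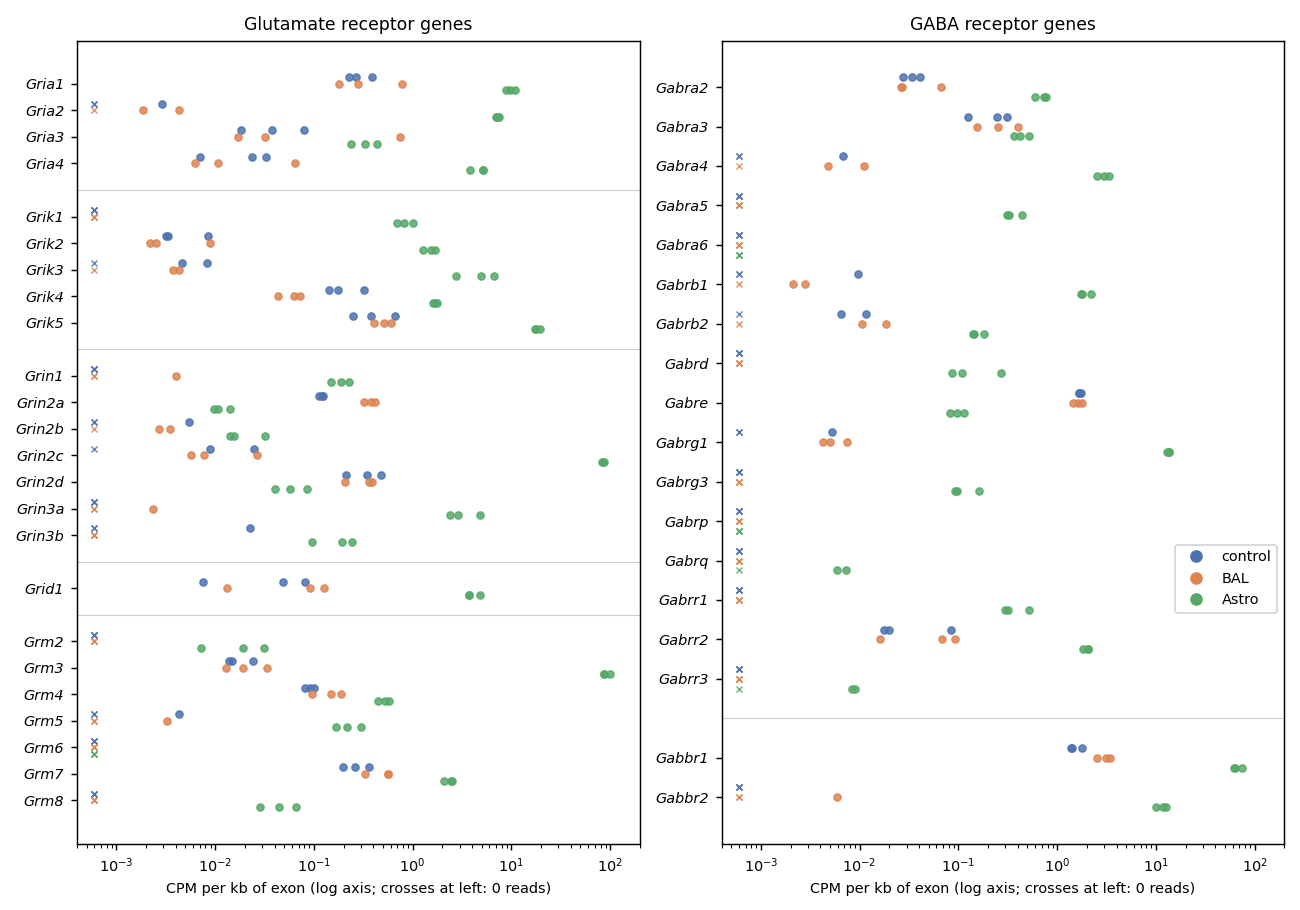
Level of 42 of the receptor genes in the 9 libraries, in CPM per kb of exon on a log axis, with 1 point per library (blue control, orange BAL, green Astro) and crosses at the left edge for libraries with 0 reads. Astro points lie to the right of the others for most genes, with *Grin2a*, *Grin2d* and *Gabre* to the left, and 12 genes show only crosses in control and BAL.

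The first comparison sets the BAL libraries against the control libraries, which differ in both drug and time of growth. Among the receptor genes, *Grin2a*, an NMDA subunit, was 3.10-fold higher in BAL libraries. *Gabbr1*, the ligand-binding GABA-B subunit, was 1.98-fold higher, and *Grik4*, a kainate subunit, was lower. No other receptor gene passed the threshold. With edgeR's quasi-likelihood test and Benjamini-Hochberg adjustment over all 12633 genes tested, 11 of the 47 receptor genes were high enough to be tested, of which 2 were called higher and 1 lower at a threshold of 0.05. Among all genes tested, 14.7% were called, 8.64% higher and 6.09% lower. The same 3 genes were those whose control and BAL values did not overlap, as did those of 39.7% of all genes tested (20.0% higher and 19.7% lower). The median log2 fold change was 0.48 over the 11 receptor genes and 0.016 over all genes tested. With 11 genes these shares only describe the set. The calls over the whole table also depended on the libraries, with 193 genes called without control 3 and 1 without both control 3 and BAL 1.

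*Grin2a* (chromosome 16, 9567898 to 9995560, minus strand, GENCODE vM21) encodes the NMDA subunit GluN2A, which binds glutamate. Its level was 2.23, 2.05 and 2.17 CPM in control 1 to 3 and 7.49, 6.73 and 5.72 CPM in BAL 1 to 3. Every BAL library lay above every control library, and the 3 control libraries were close to each other. The log2 fold change was 1.63 (standard error 0.200, adjusted p = 0.00728, edgeR), from 157 reads in control and 591 in BAL libraries. It was past the threshold with each single library left out, and without both control 3 and BAL 1 it was 1.54 with an adjusted p of 0.0874. *Grin2d*, the NMDA subunit GluN2D, had 3.17, 1.41 and 2.29 CPM in control and 1.38, 2.58 and 2.38 CPM in BAL libraries, which overlapped (log2 fold change -0.10, standard error 0.374, adjusted p = 0.863, edgeR). Of its exon length, 9.7% is shared with a transcript on the other strand. Within the NMDA class, *Grin2a* made up 20.2%, 32.7% and 24.7% of the summed CPM per kb in control 1 to 3 and 63.8%, 48.4% and 46.3% in BAL 1 to 3, and *Grin2d* 77.4%, 60.8% and 70.3% against 31.7%, 50.1% and 52.0%. The leading NMDA gene by group mean was thus *Grin2d* in control and *Grin2a* in BAL libraries. *Grin1*, which every NMDA receptor needs, was at 0 in the 3 control libraries and had 1 read in BAL 2 and 0 in BAL 1 and 3. *Grin2b* did not exceed 0.134 CPM, *Grin2c* 0.135 CPM, *Grin3a* 0.0290 CPM and *Grin3b* 0.0744 CPM in these libraries.

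*Gabbr1* (chromosome 17, 37045966 to 37075067, plus strand), whose promoter is shown above, had 13.8, 11.1 and 10.7 CPM in control 1 to 3 and 19.8, 24.0 and 26.3 CPM in BAL 1 to 3. The groups did not overlap. The log2 fold change was 0.99 (standard error 0.160, adjusted p = 0.0126, edgeR), without control 3 it was 0.91 with an adjusted p of 0.0631, and without both control 3 and BAL 1 it was 1.02 with an adjusted p of 0.0846. *Gabbr2*, the subunit that carries the GABA-B receptor to the surface and couples it to G proteins, had 0 reads in 5 of these libraries and 1 read in BAL 2. *Gabbr1* was the receptor gene with the highest CPM in each of the 6 libraries, while its partner was at the limit of detection.

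*Grik4* (chromosome 9, 42518135 to 42944493, minus strand) encodes a kainate subunit that forms channels only together with other kainate subunits. It had 1.92, 0.856 and 1.04 CPM in control 1 to 3 and 0.371, 0.430 and 0.261 CPM in BAL 1 to 3, and the groups did not overlap. The log2 fold change was -1.83 (standard error 0.429, adjusted p = 0.0313, edgeR), from 91 reads in control and 31 in BAL libraries. With 11, 11 and 9 reads in BAL 1 to 3, *Grik4* needed its level in control libraries to be tested, so this p adds no support. The call rested on each of 4 libraries: the adjusted p was 0.0921 without control 1, 0.0858 without control 3, 0.0724 without BAL 1 and 0.0943 without BAL 3. Without both control 3 and BAL 1 it was 0.154. *Grik5*, the other subunit of this kind, had 1.30, 3.42 and 1.96 CPM in control and 2.63, 3.09 and 2.12 CPM in BAL libraries, which overlapped (log2 fold change 0.23, standard error 0.374, adjusted p = 0.697, edgeR). *Grik1*, *Grik2* and *Grik3*, whose products can form channels alone, did not exceed 0.117 CPM in any control or BAL library.

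Among AMPA genes, *Gria1* (chromosome 11, 57011387 to 57330244) had 2.32, 1.38 and 1.63 CPM in control and 1.69, 4.69 and 1.07 CPM in BAL libraries. The groups overlapped and BAL 2 stood above the rest (log2 fold change 0.48, standard error 0.538, adjusted p = 0.559, edgeR, and -0.36 without BAL 2). *Gria3* was too low in most of these libraries to be tested. Its level was 0.179, 0.782 and 0.375 CPM in control and 0.169, 7.43 and 0.319 CPM in BAL libraries, with 190 of its 206 BAL reads in BAL 2. *Cacng7*, an AMPA auxiliary subunit, was also high in BAL 2 alone, at 0.270, 8.33 and 0.813 CPM in BAL and at most 0.261 CPM in control libraries. These 3 genes were set side by side after their values were seen. *Gria2*, the subunit that limits calcium entry, did not exceed 0.0675 CPM and *Gria4* 0.407 CPM in control and BAL libraries. The delta gene *Grid1* varied within both groups, from 0.0447 to 0.484 CPM in control and 0.0782 to 0.755 CPM in BAL libraries (log2 fold change 0.74, standard error 0.826, adjusted p = 0.560, edgeR).

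Metabotropic glutamate receptors were represented by *Grm7* and *Grm4*, both of the group that lowers cyclic AMP. *Grm7* had 1.16, 2.12 and 1.54 CPM in control and 1.92, 3.32 and 3.34 CPM in BAL libraries. BAL 2 and 3 lay above all control libraries and BAL 1 did not, and the log2 fold change of 0.83 did not pass (standard error 0.336, adjusted p = 0.126, edgeR). *Grm4* had 0.491, 0.596 and 0.542 CPM in control and 0.574, 1.13 and 0.900 CPM in BAL libraries, again with BAL 1 among the control values (log2 fold change 0.67, standard error 0.362, adjusted p = 0.228, edgeR). *Grm2*, *Grm3*, *Grm5*, *Grm6* and *Grm8* did not exceed 0.101 CPM in any control or BAL library.

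Of 19 GABA-A genes, 2 were tested and neither was called. *Gabre* (chromosome X, 72255999 to 72274803, minus strand), which encodes the epsilon subunit, had 8.35, 7.89 and 7.96 CPM in control and 8.37, 7.78 and 6.85 CPM in BAL libraries. The groups overlapped and the log2 fold change was -0.07 with a standard error of 0.153 (adjusted p = 0.788, edgeR), and its sign turned to 0.02 when total library size was used for scaling. *Gabra3*, the neighbouring alpha 3 gene, had 0.491, 1.23 and 0.959 CPM in control and 1.59, 0.978 and 0.610 CPM in BAL libraries, also overlapping (log2 fold change 0.24, standard error 0.468, adjusted p = 0.750, edgeR). *Gabrb1* and *Gabrb2*, which encode beta subunits, with which GABA-A receptors are usually built, did not exceed 0.134 CPM in control and BAL libraries. Over all classes, the 36 receptor genes not tested lay at or below 0.508 CPM in every control and BAL library apart from *Gria3*.

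**Figure D2:**
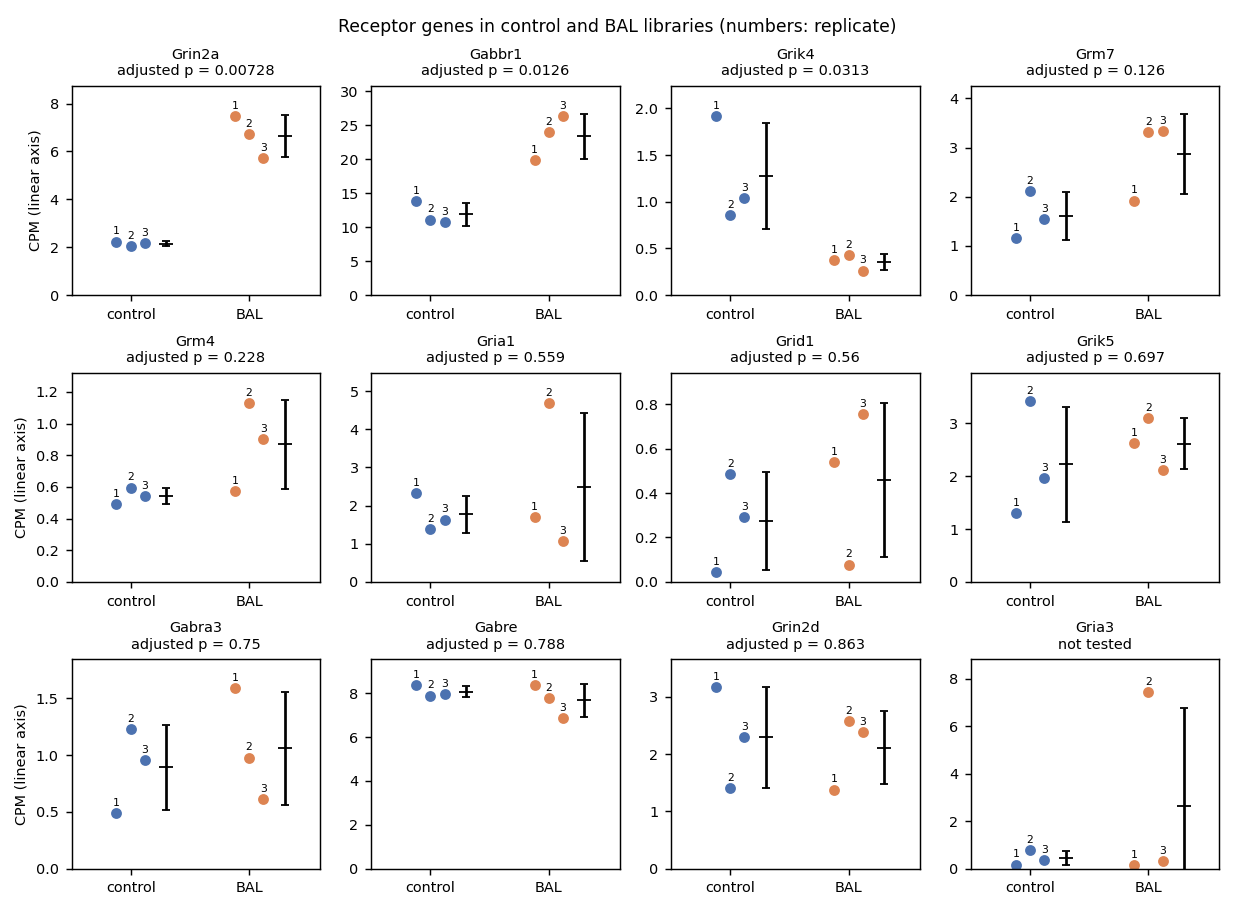
CPM on linear axes of the 11 receptor genes tested between BAL and control libraries and of *Gria3*, with 1 numbered point per library and the mean with its SD (n = 3) in black; the lower bar of *Gria3* is cut at 0. Groups are apart for *Grin2a*, *Gabbr1* and *Grik4*, and BAL 2 stands alone for *Gria1* and *Gria3*.

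Other values also differed between these groups. The neuron genes summed higher in every BAL than in every control library, with the ranges given above, but this came from *Thy1*, at 36.0 to 103 CPM in control and 134.5 to 294 CPM in BAL libraries. Without *Thy1* the other 13 summed to 93.9 to 155 CPM in control and 93.2 to 129 CPM in BAL libraries, which overlapped. These genes went both ways. The neurofilament genes *Nefl* and *Nefm* were lower in every BAL than in every control library. *Celf4* (19.5 to 23.4 CPM in control, 32.0 to 45.9 in BAL), *Eno2* (9.84 to 10.6 and 22.3 to 30.2) and *Syn1* (12.1 to 13.9 and 14.9 to 16.4) were higher. A higher sum in every BAL library was also found for 8 oligodendrocyte precursor genes, at 225 to 431 CPM in control and 462 to 600 CPM in BAL libraries, a sum led by *Pdgfra* and *Cspg4*, while *Sox10* and *Olig2* did not exceed 0.313 CPM. It was found as well for 12 microglia and macrophage genes, at 197 to 330 and 361 to 421 CPM, a sum led by *Tmem119*, with *Aif1* and *Tyrobp* at 3 counts or fewer. Endothelial genes (8) were lower in BAL, at 735 to 867.9 and 522 to 648 CPM, and most of that sum was *Cdh5*. Astrocyte genes were lower in every BAL than in every control library too, with the ranges given above and *Gja1* as the largest part of the sum. *Snap25*, a synaptic gene of neurons, did not exceed 0.338 CPM. The part of these differences in the receptor changes was not tested.

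Summed over each class per kb of exon, receptor levels in control and BAL libraries were low and led by 1 gene. GABA-A genes summed to 2.04 ± 0.0377 (SD, n = 3) in control and 2.02 ± 0.250 CPM per kb in BAL libraries, of which *Gabre* made up 83.6% and 80.3%. GABA-B genes summed to 1.53 ± 0.217 and 3.01 ± 0.424, which was nearly all *Gabbr1*, and NMDA genes to 0.485 ± 0.133 and 0.706 ± 0.0616. Both these classes were higher in every BAL library, with an exact permutation p of 0.1, the smallest that 3 against 3 can give (Benjamini-Hochberg value 0.35 over the 7 classes, two-sided). For kainate genes the sums were 0.654 ± 0.147 and 0.572 ± 0.114, for metabotropic genes 0.399 ± 0.0926 and 0.658 ± 0.165, and for AMPA genes 0.361 ± 0.0447 and 0.708 ± 0.718, where BAL 2 had 1.54 and the other BAL libraries 0.311 and 0.277. Delta genes were lowest, at 0.0472 ± 0.0380 and 0.0774 ± 0.0582. Exact permutation p values for these 4 classes and GABA-A lay between 0.2 and 1.0.

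Genes that work with the receptors were read from a list of 85, of which 53 encode auxiliary subunits and scaffolds and 32 encode enzymes and carriers of the transmitters. In BAL against control, 52 were tested, 7 were called higher and 1 lower (15.4%, beside 14.7% of all genes), with a median log2 fold change of 0.09. *Shank3*, a scaffold of excitatory synapses, rose from 21.8, 19.1 and 16.9 CPM in control to 38.1, 48.5 and 42.8 CPM in BAL libraries, with no overlap (log2 fold change 1.17, standard error 0.141, adjusted p = 0.00728, edgeR). It kept an adjusted p under 0.05 with each single library left out. *Camk2a*, the kinase that binds NMDA receptors, rose by 1.72 on the log2 scale (adjusted p = 0.0168), and *Nlgn2*, the neuroligin of inhibitory synapses, by 0.57 (adjusted p = 0.0181). *Slc1a3*, a glutamate carrier, and *Pick1*, which binds AMPA subunits, rose with adjusted p of 0.0403 and 0.0489. *Got2*, a mitochondrial aminotransferase of glutamate, had 279, 282 and 279 CPM in control and 186, 209 and 188 CPM in BAL libraries (log2 fold change -0.52, standard error 0.0863, adjusted p = 0.0133, edgeR). Without control 3, *Got2* (0.0612), *Camk2a* (0.0674), *Nlgn2* (0.0778), *Slc1a3* (0.119) and *Pick1* (0.161) had the adjusted p given in parentheses and 2 partners were called higher. The calls of *Camk2a* without BAL 3, and of *Nlgn2* without control 1 or BAL 3, were lost as well. Those of *Slc1a3* and *Pick1* were lost in most fits that left out 1 library, the exceptions being BAL 1 for *Slc1a3* and BAL 2 for *Pick1*. *Pick1* was also not called with upper-quartile scaling (adjusted p = 0.0516), with limma-trend (0.0522) or with a filter of 1 count in any library (0.0565). Without both control 3 and BAL 1, no partner was called.

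**Figure D3:**
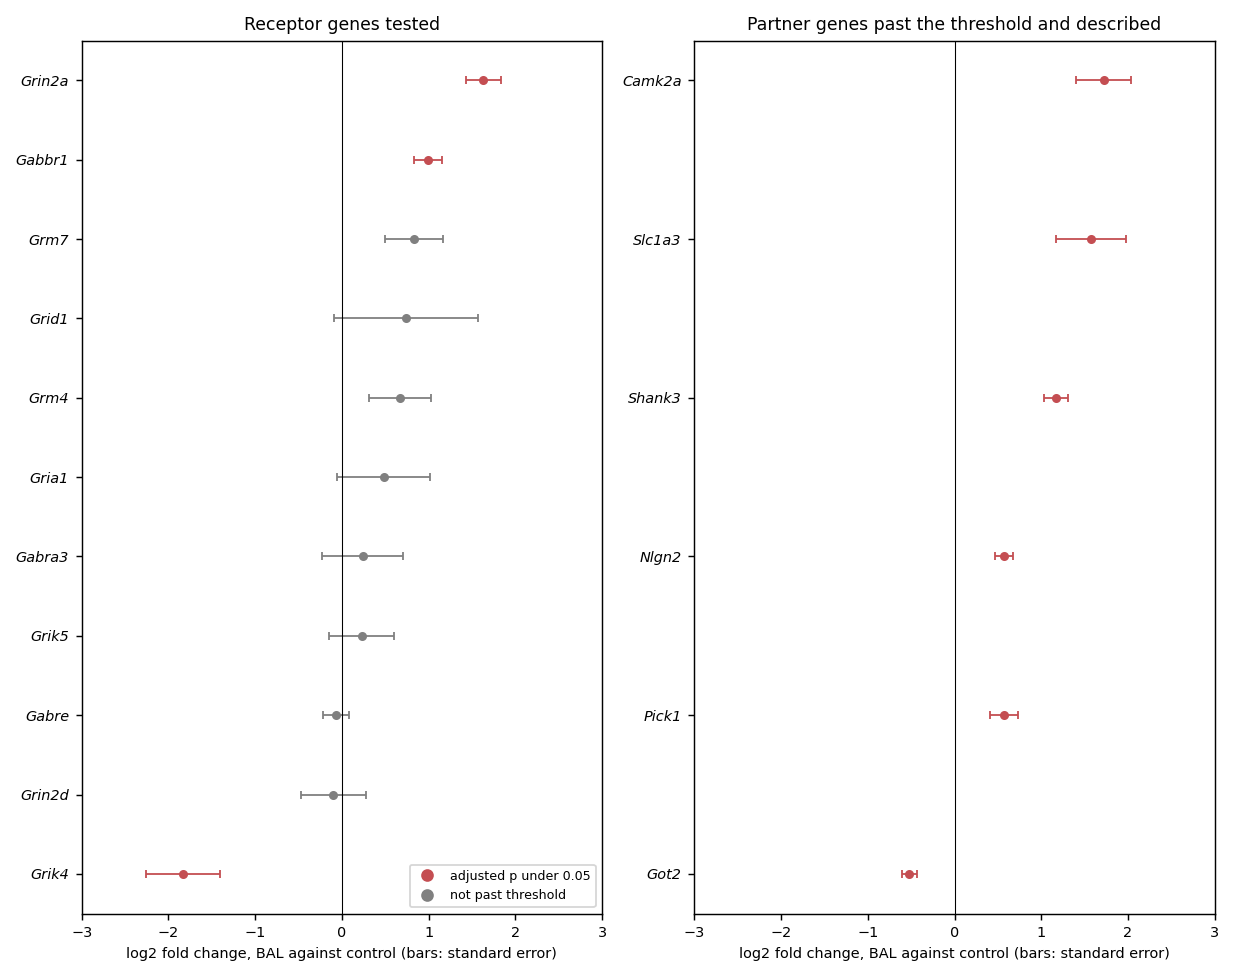
Log2 fold change of BAL against control with its standard error (edgeR, n = 3 per group), for the 11 receptor genes tested at left and 6 of the partner genes called at right, with red points for an adjusted p under 0.05. Receptor points run from *Grik4* at -1.83 to *Grin2a* at 1.63, and partner points from *Got2* at -0.52 to *Camk2a* at 1.72.

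The second comparison sets the Astro libraries against the BAL libraries, whose labels share the treatment. Astro libraries had far higher levels of most receptor genes, among them *Grin2c* (NMDA), *Grm3* (metabotropic), *Gria2* (AMPA), *Gabrg1* (GABA-A) and *Gabbr2* (GABA-B), and lower levels of *Grin2a*, *Grin2d* and *Gabre*. Of 15314 genes tested, edgeR's quasi-likelihood test called 85.1%, 46.3% higher and 38.9% lower in Astro, so a call alone says little here. Among the 47 receptor genes 36 were tested, 31 were called higher, 3 lower and 2 were not called, and the groups did not overlap for 34 (87.9% of all genes tested did not overlap). Of these 36, 25 had been too low to test in control and BAL libraries and could enter only through their level in Astro libraries. Among the 11 tested in both comparisons, 7 were higher, 3 lower and 1 not called, with a median log2 fold change of 2.23, beside 0.182 over all genes tested. Of these 11, *Grid1* and *Grik4* still needed their level in Astro libraries to enter, and *Grin2a* and *Grin2d* theirs in BAL libraries. With at least 10 counts in every library, 7 receptor genes were tested, of which 6 were higher and 1 lower. The 11 receptor genes not tested lay at or below 0.809 CPM in Astro libraries.

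*Grin2c* (chromosome 11, 115249169 to 115267243, minus strand), the NMDA subunit GluN2C, had 436, 413 and 428 CPM in Astro 1 to 3 and at most 0.135 CPM in BAL libraries. The log2 fold change was 12.51 (standard error 0.228, adjusted p = 8.24e-09, edgeR), and 11.67 to 13.42 in the alternative fits. It rests on 6 reads over the BAL libraries. The gene entered the test only through its level in Astro libraries, so this p adds no support. The 3 Astro libraries lay close together. *Grin2c* made up 95.7% of the NMDA sum per kb in Astro libraries, with *Grin3a* at 3.82%. *Grin3a* had 59.7, 35.2 and 29.5 CPM in Astro libraries and 1 read in BAL libraries, a ratio of 3808 (95% counting interval 683 to 150465), and was highest in Astro 1. *Grin1* had 2.21, 1.84 and 1.46 CPM in Astro libraries, against 1 read in BAL libraries (ratio 167, interval 29.5 to 6631). Per kb of exon, *Grin1* was at 0.189 ± 0.0383 (SD, n = 3) beside a mean of 84.5 for *Grin2c*. Of the exon length of *Grin1*, 13.5% of its exon length overlaps *Grin1os* on the other strand, and *Grin1os* did not exceed 0.0771 CPM. *Grin2a* was the reverse, with 0.252, 0.177 and 0.193 CPM in Astro libraries (log2 fold change -5.00, standard error 0.271, adjusted p = 8.06e-07, edgeR). *Grin2d* fell as well (log2 fold change -2.40, standard error 0.377, adjusted p = 0.000417, edgeR). These falls rest on 18 reads of *Grin2a* and 35 of *Grin2d* over the Astro libraries. Both genes needed their level in BAL libraries to enter the test, so these p values add no support. Control libraries, at 2.05 to 2.23 CPM of *Grin2a*, lay between BAL and Astro libraries.

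*Grm3* (chromosome 5, 9485541 to 9725170, minus strand), a metabotropic receptor that lowers cyclic AMP, had 307, 266 and 263 CPM in Astro and at most 0.101 CPM in BAL libraries (log2 fold change 11.90, standard error 0.195, adjusted p = 6.93e-09, edgeR). This fold change rests on 6 reads over the BAL libraries and was 11.01 to 12.28 in the alternative fits. *Grm3*, too, entered the test only through its level in Astro libraries. It made up 96.6% of the metabotropic sum per kb, and *Grm7*, which led that class in control and BAL libraries, 2.48%. *Grm7* was itself higher in Astro libraries, at 14.4, 14.7 and 12.4 CPM, as was *Grm4* at 3.47, 2.65 and 3.16 CPM. *Grm5*, a receptor coupled to calcium release, had 3.06, 2.23 and 1.73 CPM against 1 read in BAL libraries (ratio 214, interval 37.9 to 8485). *Grm2* and *Grm8* did not exceed 0.655 CPM.

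All 4 AMPA genes were detected in Astro libraries. *Gria2* (chromosome 3, 80681450 to 80802835, minus strand) had 108, 117 and 112 CPM there and 3 reads over the BAL libraries, a ratio of 3341 (95% counting interval 1143 to 16205). *Gria1* had 58.5, 53.0 and 65.4 CPM (log2 fold change 4.58, standard error 0.448, adjusted p = 2.44e-05, edgeR) and, by its shorter exons, led the class per kb with 44.4% against 32.8% for *Gria2*. *Gria4* had 32.5, 32.3 and 23.7 CPM. *Gria3* had 4.32, 3.22 and 2.35 CPM, below BAL 2 and above BAL 1 and 3, and was not called (log2 fold change 0.34, standard error 1.10, adjusted p = 0.780, edgeR). Without BAL 2 the log2 fold change was 3.66 with an adjusted p of 0.000108 (edgeR). That fit rests on 5 and 11 reads in BAL 1 and 3. *Gria3* entered it only through its level in Astro libraries, so this p adds no support.

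All 5 kainate genes were higher in Astro libraries. *Grik5* led the class per kb with 67.2%, at 99.6, 90.9 and 89.8 CPM (log2 fold change 5.13, standard error 0.141, adjusted p = 3.12e-08, edgeR). *Grik3* had 59.7, 44.6 and 24.7 CPM, highest in Astro 1 and lowest in Astro 3, and *Grik2* 22.5, 20.1 and 16.9 CPM. *Grik4*, which was lower in BAL than in control libraries, had 9.65, 9.93 and 10.6 CPM. *Grik1* had 6.81, 5.48 and 4.66 CPM against 0 reads in BAL libraries, and was at least 55.5-fold higher. The delta gene *Grid1*, at 28.5, 22.3 and 22.4 CPM, was higher as well.

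GABA-A genes in Astro libraries were led by *Gabrg1* (chromosome 5, 70751047 to 70842617, minus strand), a gamma subunit gene whose promoter, shown above, holds no GC box. It had 108, 101 and 107 CPM in Astro and at most 0.0581 CPM in BAL libraries (log2 fold change 11.04, standard error 0.158, adjusted p = 6.93e-09, edgeR), and made up 55.9% of the class per kb. Its fold change rests on 4 reads over the BAL libraries and was 9.86 to 12.45 in the alternative fits. *Gabrg1*, too, entered the test only through its level in Astro libraries. *Gabra4* had 20.3, 15.3 and 18.2 CPM, *Gabrb1* 30.6, 24.0 and 24.7 CPM and *Gabra2* 5.83, 4.52 and 5.67 CPM, each above all BAL libraries. *Gabrr2*, a rho subunit gene, had 4.35, 4.31 and 3.85 CPM. Lower levels were found for *Gabra5*, *Gabrg3*, *Gabrr1* and *Gabrb2*, which lay between 0.672 and 1.92 CPM. *Gabrd*, *Gabrq* and *Gabrr3* did not exceed 0.771 CPM. *Gabre* went the other way, at 0.536, 0.460 and 0.385 CPM (log2 fold change -4.07, standard error 0.230, adjusted p = 1.02e-06, edgeR), and *Gabra3*, at 2.05, 1.66 and 1.43 CPM, was not called (log2 fold change 0.67, standard error 0.370, adjusted p = 0.124), although without BAL 1 it was 1.07 with an adjusted p of 0.0219.

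GABA-A genes lie in clusters along the genome, taken here as genes less than 1000000 bases apart, and 3 of these clusters are compared. The X chromosome cluster (*Gabre*, *Gabra3*, *Gabrq*) summed to 1.93 ± 0.0453 CPM per kb in control, 1.89 ± 0.285 in BAL and 0.538 ± 0.0960 in Astro libraries (SD, n = 3). The chromosome 5 cluster (*Gabrg1*, *Gabra2*, *Gabra4*, *Gabrb1*) summed to 0.0414 ± 0.00843, 0.0524 ± 0.0190 and 19.0 ± 1.19. The X cluster was thus the higher of the pair in tumor libraries and the lower in Astro libraries. Its fall in Astro libraries came from *Gabre*, with means of 1.70, 1.62 and 0.0972 CPM per kb in control, BAL and Astro libraries. *Gabra3* went the other way, with means of 0.228, 0.270 and 0.436 CPM per kb. The chromosome 4 cluster (*Gabrr1*, *Gabrr2*) reached 2.36 ± 0.0219 in Astro libraries and did not exceed a mean of 0.0593 in control or BAL libraries. The clusters were set side by side with results known, and no test was made of them.

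GABA-B genes were both high in Astro libraries. *Gabbr1* had 584, 486 and 485 CPM (log2 fold change 4.43, standard error 0.148, adjusted p = 7.53e-08, edgeR). *Gabbr2* (chromosome 4, 46662305 to 46991873, minus strand) had 84.6, 67.3 and 78.0 CPM against 1 read in BAL libraries, a ratio of 6894 (95% counting interval 1237 to 272345). Per kb of exon, *Gabbr1* made up 85.3% and *Gabbr2* 14.7% of the class.

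Per kb of exon, the classes summed in Astro libraries to 94.6 ± 8.38 (SD, n = 3) for metabotropic, 88.4 ± 3.36 for NMDA, 78.2 ± 8.41 for GABA-B, 26.9 ± 3.21 for kainate, 24.0 ± 1.49 for GABA-A, 22.0 ± 0.231 for AMPA and 4.80 ± 0.701 for delta genes. The order of the classes was different in the tumor libraries, where GABA-A and GABA-B stood first. Library values of neighbours in this order overlapped for metabotropic and NMDA, NMDA and GABA-B, and kainate and GABA-A genes, and did not for GABA-A and AMPA genes. Over all receptor genes the sums were 5.51 ± 0.281 in control, 7.75 ± 1.05 in BAL and 339 ± 24.8 CPM per kb in Astro libraries. Although the genes differed, the 4 highest genes made up 72.7%, 72.6% and 77.0% of these sums. They were *Gabre*, *Gabbr1*, *Grik5* and *Grin2d* in control, *Gabbr1*, *Gabre*, *Grik5* and *Grm7* in BAL, and *Grm3*, *Grin2c*, *Gabbr1* and *Grik5* in Astro libraries.

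**Figure D4:**
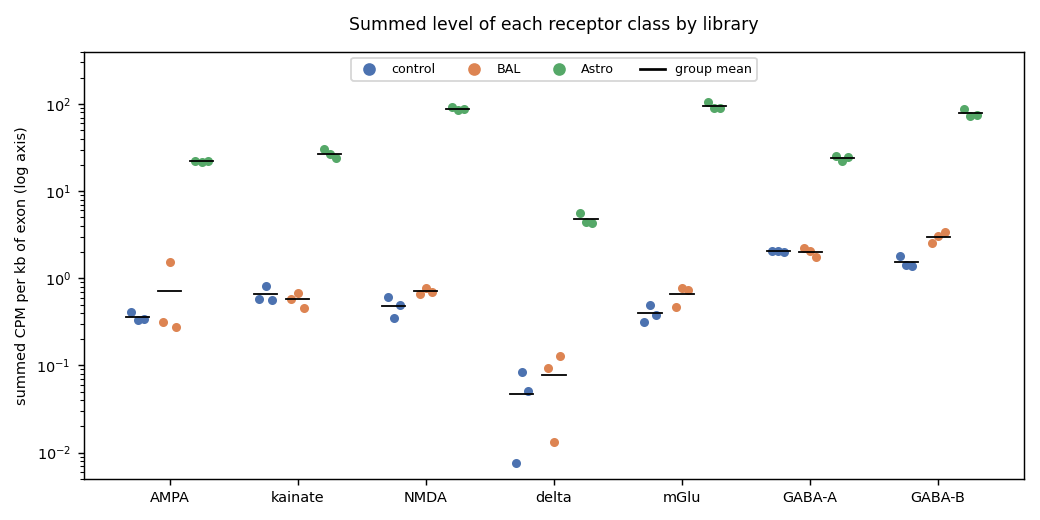
Summed CPM per kb of exon of each receptor class in the 9 libraries on a log axis, with 1 point per library and black lines for group means. Astro points lie above control and BAL points in all 7 classes, and within control and BAL the GABA-A and GABA-B sums are the highest.

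Of the 85 partner genes, 78 were tested between Astro and BAL libraries, 51 were called higher and 20 lower (91.0%, beside 85.1% of all genes), with a median log2 fold change of 2.09. Of the 78, 26 had been too low to test in control and BAL libraries, so that their level in Astro libraries let them in, and all 26 were called higher. Among the 52 tested in both comparisons, 25 were higher, 20 lower and 7 not called, with a median of 0.51. With at least 10 counts in every library, 23 of 46 were higher and 16 lower. The largest rises included those of several transmitter carriers. The GABA carrier *Slc6a11* had a mean of 1706 ± 183 CPM (SD, n = 3) in Astro and 0.300 ± 0.150 CPM in BAL libraries. The glutamate carrier *Slc1a2* had 5287 ± 706 and 1.41 ± 0.263 CPM, and the glutamine carrier *Slc38a3* 615 ± 56.2 and 0.321 ± 0.205 CPM. The GABA carrier *Slc6a13* had 0 reads in BAL libraries and was at least 150-fold higher in Astro libraries. The largest falls were of *Nptx1*, a secreted protein that gathers AMPA receptors (log2 fold change -5.86, standard error 0.469, adjusted p = 7.40e-06, edgeR), *Neto2*, an auxiliary subunit of kainate receptors (-4.82, adjusted p = 1.64e-06), *Nptxr*, the glutamate carrier *Slc1a7* (-3.44) and the AMPA auxiliary subunit *Shisa6* (-2.14). *Neto2* was abundant in tumor libraries, at 131 to 278 CPM in BAL and 164 to 214 CPM in control, where no kainate gene exceeded 3.42 CPM. *Nptx1* lay between 48.6 and 138 CPM in BAL libraries. The fall of *Slc1a7* rests on 7 reads over the Astro libraries and has a standard error of 0.691. For *Nptxr*, which had 3 reads in Astro libraries, the ratio of BAL to Astro was 27.2 (95% counting interval 8.99 to 134). Both *Slc1a7* and *Nptxr* entered the test only through their level in BAL libraries. These intervals and limits cover counting error only.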

How the data were processed

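Stranded RNA libraries were mapped with TopHat to mm10 and counted with HTSeq 0.6.1, per the labels and the methods of the study, which also name featureCounts. The annotation, the strand setting and the handling of reads shared between genes are not given in the sources used here. The table the authors deposited gives raw whole-number counts, without normalization, in 9 libraries. Row names turned into dates (27) took at most 0.44% of a library and were kept.

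Fits used edgeR 4.0.16, with limma 3.58.1 and DESeq2 1.42.0 as alternatives, in R 4.3.3. Only the 2 groups compared entered a fit. Low genes were removed with filterByExpr, libraries were scaled by TMM, and the two-sided quasi-likelihood test was adjusted by Benjamini-Hochberg across the table, with 0.05 as the threshold. A standard error was obtained as the ratio of the log2 fold change to the root of the F statistic. Fold limits against 0 reads use 3 counts per library. Exon lengths and positions are from GENCODE vM21 on GRCm38. The scripts were tested on simulated counts.

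Libraries were grouped by their labels. Those of 1 group differed by more than sampling noise (chi-square per degree of freedom 14.3 to 64.9), but nothing says that each came from its own mouse, so p values measure the spread between these libraries. The members and lists were chosen with earlier results of these data known. Genes named in full are those called or not overlapping in BAL against control, the 2 highest per kb of each class in each group, the 5 highest and all lower called in Astro against BAL, and those at 0 in a library of 1 group and over 1 CPM in another. Some genes that these rules pick are not reported here. Partners named are up to 10 called in BAL against control and the 5 largest called changes each way in Astro against BAL. Any other gene named was chosen after its values were seen. Alternatives were other scalings and filters, DESeq2, limma-trend with a prior count of 2, a model of all 9 libraries, fits without single libraries or with 2 per group, the replicate number as a block, control in place of BAL libraries, and sums without division by length.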

Additional observations from a re-analysis of the deposited data

How the results depend on the processing

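The calls of *Grin2a* and *Gabbr1* kept their direction and threshold under all scalings, filters, tools and the model of all 9 libraries; *Grik4* had no value with at least 10 counts in every library, where the number of receptor genes lower in BAL was 0. Leaving out 1 library gave 1 to 2 receptor genes higher and 0 to 1 lower in BAL, and 2 to 7 partners higher and 0 to 1 lower. With both control 3 and BAL 1 left out, no receptor gene and no partner was called. With all 9 libraries in 1 model 11 partners were higher and 4 lower, and with DESeq2 4 were lower. Over all genes, the split of calls was 1091 higher and 769 lower, and 1456 higher and 426 lower with total library size.

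With at least 10 counts in every library, 6 receptor genes and 23 partners were higher and 1 receptor gene lower in Astro against BAL, since low genes were not tested. Without division by length, the log2 ratio of Astro to BAL was 5.73 for NMDA, 6.32 for metabotropic and 4.23 for GABA-A sums, and it was 7.14 for NMDA with total library size. The median over all genes tested in Astro against BAL moved from 0.182 to 0.39 with total library size.

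Signs turned for genes that were not called. In BAL against control, these were *Gabra3* (-0.05 without control 1, -0.18 without BAL 1, -0.14 without both control 3 and BAL 1, otherwise up to 0.53), *Gabre* (0.02 with total library size, -0.15 to 0.01 when libraries were left out), *Gria1* (-0.36 without BAL 2, up to 0.85), *Grik5* (-0.05 without control 1, up to 0.68) and *Grin2d* (0.19 without control 1, 0.12 without BAL 1, 0.12 without both control 3 and BAL 1, down to -0.37). In Astro against BAL, *Gria3* turned to -0.26 without BAL 1 and -0.20 without BAL 3, and was 3.66 without BAL 2.

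The labels number the libraries 1 to 3 in each group. Deviations of same-numbered control and BAL libraries correlated at 0.158, -0.02 and 0.156, and those of differently numbered ones at -0.219 to 0.108. These values do not settle whether the numbers are pairs. The main fits did not take them as pairs, and a fit with the replicate number as a block was made beside them. With the replicate block, 2 receptor genes were higher and 1 lower in BAL, and 31 were higher and 3 lower in Astro; *Slc1a3* and *Pick1* lost their calls (adjusted p = 0.0614 and 0.0879), and *Pick1* also lost it with upper-quartile scaling, limma-trend and a filter of 1 count in any library. At these depths a gene of 3 counts or fewer cannot be told from an undetected one.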
